A study of Mus musculus with 6 samples.

Results

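The genes described here are 10 that encode secreted antibacterial or acute-phase proteins: the Reg lectins Reg1, Reg3a, Reg3b, Reg3g and Reg4, the iron-withholding proteins Lcn2 and Ltf, the serum amyloid A genes Saa1 and Saa3, and the lysozyme Lyz1. They were chosen by name from a table of 18708 genes, and 9 of the 10 have a row. Reg4 has no row in the table and was not analysed here. The table holds 0 rows that are at 0 in all libraries, so a gene without a row may have had no reads, which was not tested. The table gives FPKM (fragment counts normalized to transcript length and sequencing depth) in the stomach corpus of C57BL/6 mice aged 6 months. It covers 3 wild-type mice (WT) and 3 mice with the genotype RUNX3 R122C, an amino acid substitution in the transcription factor RUNX3, with 1 mouse per library and no treatment named for either group. Values listed for libraries 1 to 3 stand in that order. Whether R122C mice carried 1 or both mutated alleles, and the sex of the mice, are not given in the labels. The Y-linked gene Eif2s3y read 0 FPKM except in WT 3, with 11.88, and R122C 2, with 15.07 FPKM, and Xist, which is expressed from the inactive X chromosome, was at 0 and 0.02 FPKM in that pair and at 6.01 or more elsewhere. R122C and WT were compared in whole tissue, so that in every result below more cells of a type and more RNA per cell cannot be told apart.

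Reg3b and Reg3g are small C-type lectins that gut epithelium secretes into the mucus layer, where they bind and damage bacteria, and in the intestine they are known to be induced by IL-22 acting through STAT3. Lcn2, which captures bacterial siderophores, Ltf, which binds iron, and the serum amyloid A genes respond to IL-17, IL-1 and related signals, and Lcn2 and Ltf are also stored in neutrophil granules. Lysozymes cut bacterial cell walls. In mouse, Lyz1 is the lysozyme of Paneth cells and Lyz2 that of macrophages and other myeloid cells.

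Reg1, Reg3b and Reg3g lie in 1 cluster of 6 Reg genes on chromosome 6, which spans 98.22 kb in GENCODE M21 (build GRCm38, the assembly also called mm10). Reg3b occupies 78370657 to 78373466 on the plus strand, Reg3a 78380709 to 78383827 on the plus strand, Reg1 78422711 to 78428667 on the plus strand and Reg3g 78466269 to 78468872 on the minus strand, and Reg3d and Reg2 lie between Reg3b and Reg1. Reg3b, Reg3a and Reg3g have up to 6 exons per annotated transcript and Reg1 up to 7. The promoters of the 3 Reg genes that rose, and of their neighbour Reg3a, which stayed at or near 0, are shown to let the shared and differing letters be compared. Each covers 250 bases before and 50 after the RefSeq start (GRCm38.p6), written 5′ to 3′ on the gene's strand, and all 10 members had an entry.
Reg3g promoter, chr6:78468825-78469124, minus strand: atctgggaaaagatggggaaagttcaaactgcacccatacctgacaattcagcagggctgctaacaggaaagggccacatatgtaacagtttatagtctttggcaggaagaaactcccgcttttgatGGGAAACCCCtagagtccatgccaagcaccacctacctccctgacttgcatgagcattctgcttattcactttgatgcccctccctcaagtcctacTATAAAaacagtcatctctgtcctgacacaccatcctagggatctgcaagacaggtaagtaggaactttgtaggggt
Reg3b promoter, chr6:78370635-78370934, plus strand: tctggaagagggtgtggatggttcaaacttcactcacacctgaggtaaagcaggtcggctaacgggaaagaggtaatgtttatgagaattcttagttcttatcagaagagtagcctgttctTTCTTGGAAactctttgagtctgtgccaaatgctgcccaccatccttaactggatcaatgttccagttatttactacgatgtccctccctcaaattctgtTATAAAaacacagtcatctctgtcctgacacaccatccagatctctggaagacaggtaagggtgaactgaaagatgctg
Reg1 promoter, chr6:78425733-78426032, plus strand: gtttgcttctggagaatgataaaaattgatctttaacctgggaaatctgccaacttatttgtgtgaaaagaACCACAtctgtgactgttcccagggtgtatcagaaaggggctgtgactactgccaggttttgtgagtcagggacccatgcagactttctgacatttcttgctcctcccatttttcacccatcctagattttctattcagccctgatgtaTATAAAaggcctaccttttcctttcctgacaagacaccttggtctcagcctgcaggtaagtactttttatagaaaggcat
Reg3a promoter, chr6:78380459-78380758, plus strand: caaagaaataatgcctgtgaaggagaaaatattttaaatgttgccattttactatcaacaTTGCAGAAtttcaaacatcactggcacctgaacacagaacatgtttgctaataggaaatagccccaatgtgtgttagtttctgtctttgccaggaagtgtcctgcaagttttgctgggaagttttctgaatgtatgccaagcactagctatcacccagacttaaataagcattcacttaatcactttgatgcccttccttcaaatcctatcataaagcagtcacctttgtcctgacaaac
Capitals mark matches to the motifs searched. These were TTCNNNGAA (bound by STAT factors), TTGCNNAA (C/EBP), TGTGGT (RUNX), the letters TGCGGT (also RUNX), an NF-kB pattern (3 G, 5 free positions, 2 C) and an interferon response element (GAAA on both sides of 2 free positions) on both strands, and a TATA box (TATAAA) on the gene's strand, the last chosen after the sequences were read. No 2 of these motifs overlapped in the 4 promoters shown.

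The promoters of Reg3g, Reg1 and Reg3b each held TATAAA, and that of Reg3a did not. Of 32851 mouse promoters of this length, 8.32% hold TATAAA. Because this motif was chosen after the sequences were read, the split between these genes is no test. Reg3b held the STAT motif as TTCTTGGAA, with its 5′ base at position -129 from the start, a motif found in 8.3% of promoters and in 1 of the 10 members. Reg3g held the NF-kB motif as GGGAAACCCC, with its 5′ base at position -123, a loose pattern present in 50.8% of promoters and in 4 of the 10 members. The RUNX letters TGTGGT, present in 16.8% of promoters, were found in Reg1 and in Ltf, where they lie 25 to 30 bases after the start. TGCGGT, present in 6.45%, was in none of the 10 windows, and the C/EBP motif, present in 10.8%, was in 6, namely Reg3a, Lcn2, Ltf, Saa1, Saa3 and Lyz1. The interferon response motif, present in 3.44%, was in Saa3. In a global alignment the Reg3b and Reg3g promoters were identical at 68.6% of positions, against 45.7% to 52.4% for the other 9 pairs of the 5 Reg promoters. The longest run shared by Reg3b and Reg3g is the 29 bases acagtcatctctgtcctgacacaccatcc, shortly downstream of TATAAA in both. These matches describe letters and show no binding.

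Reg3g, Reg1 and Reg3b were scarcely detected in WT and rose in R122C corpus, whereas Ltf, Lcn2, Lyz1, Saa1, Saa3 and Reg3a did not pass the test or lay too low for it. Genes whose FPKM averaged 1 or more across libraries, 11422 in all, were tested with limma on log2(FPKM + 1) and Benjamini-Hochberg adjustment at 0.05. Of the 9 members with a row, 5 reached that mean (Reg1, Reg3b, Reg3g, Ltf and Lyz1), of which the first 4 did so through their R122C values, with WT means under 1, and 4 did not (Reg3a, Lcn2, Saa1 and Saa3). Of the 5 tested, 3 rose and 0 fell, and either without WT 2 or with no filter only Reg3g rose. Over all tested genes, 5.27% rose and 0.832% fell, or 602 and 95 genes, a split that became 419 and 192 with median-of-ratios scaling and 405 and 248 with quantile normalization. Leaving out WT 2 gave 246 and 18 genes, leaving out WT 3 330 and 35, leaving out R122C 2 298 and 14, and leaving out R122C 1 566 and 195. The R122C values all lay above the WT values for 4 of the 9 members (Reg1, Reg3b, Reg3g and Lyz1), all among the 5 tested. They did so for 20.3% of tested genes. The median log2(FPKM + 1) difference of the 9 members with a row was 0.64, beside 0.033 over all 18708 genes. Over all tested genes it was 0.10, which became -0.0028 with median-of-ratios scaling, -0.06 with quantile normalization and 0.29 after rescaling to a common total. The members and the gene lists below were chosen with earlier results of these data known. Their counts and medians are therefore descriptions and no test.

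**Figure D1:**
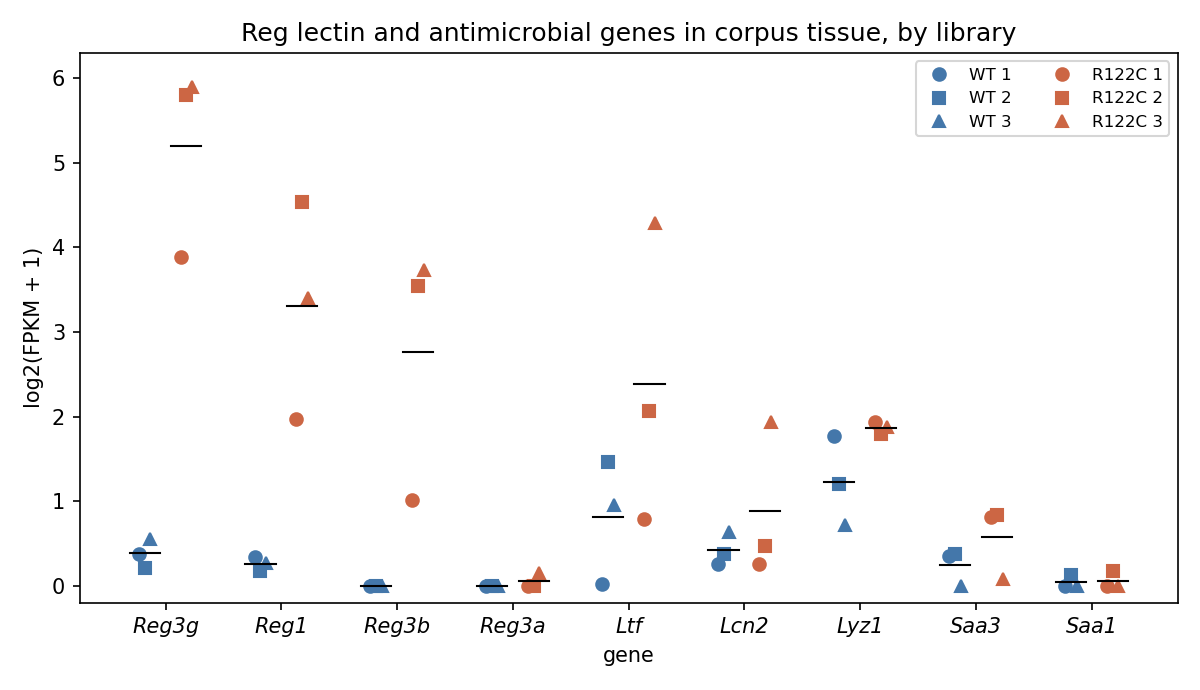
Level of each gene with a row, as log2(FPKM + 1), in the 3 WT libraries (blue) and the 3 R122C libraries (orange), with marker shapes for libraries 1, 2 and 3 and black lines at group means of the log2 values. Reg3g, Reg1 and Reg3b lie well apart between the groups, Ltf and Lcn2 are highest in R122C 3, and Saa1 and Reg3a lie at or near 0.

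Reg3g, whose protein binds peptidoglycan of Gram-positive bacteria, was the most abundant member in every R122C library. It was at 0.3, 0.16 and 0.47 FPKM across WT libraries 1 to 3, and at 13.78, 54.81 and 58.85 FPKM across R122C libraries 1 to 3. The groups lay far apart, with R122C 1 the lowest of its group. Mean FPKM was 0.31 ± 0.16 for WT and 42.5 ± 24.9 for R122C (SD, n = 3 each), a ratio of means of 137. On the log2(FPKM + 1) scale it rose by 4.81 ± 0.49 (SE, limma adjusted p = 0.00151), the 18th largest rise of the 11422 tested genes. Each of 15 alternative settings also gave a rise past the threshold, between 4.46 and 6.51. By its mean Reg3g stood at place 13057 of the 18708 genes in WT and at place 1705 in R122C.

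Reg1 encodes a regenerating protein that is abundant in pancreatic juice and is also made in the stomach. It was at 0.27, 0.13 and 0.2 FPKM across WT libraries 1 to 3, and at 2.91, 22.19 and 9.59 FPKM across R122C libraries 1 to 3. Every R122C library lay above every WT library, and unlike Reg3g it was highest in R122C 2, 1 of the 2 libraries with Y-linked RNA (the part of sex was not tested). Mean FPKM was 0.20 ± 0.07 for WT and 11.6 ± 9.79 for R122C (SD, n = 3 each). It rose by 3.04 ± 0.54 on the log2(FPKM + 1) scale (SE, limma adjusted p = 0.0153), and by 4.88 with a pseudocount of 0.1 FPKM in place of 1. The limma adjusted p was 0.0716 without WT 2 and 0.0615 with no filter.

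Reg3b, a lectin known in mouse gut for acting on Gram-negative as well as some Gram-positive bacteria, was listed at 0 in all 3 WT libraries. It was at 1.02, 10.67 and 12.27 FPKM across R122C libraries 1 to 3, in the same order of libraries as Reg3g. Its log2(FPKM + 1) difference was 2.76 ± 0.63 (SE, limma adjusted p = 0.0391). Because WT is listed at 0, the size depends on the pseudocount, and it was 5.73 with 0.1 FPKM, so no fold is given. The call did not hold without WT 1 (adjusted p = 0.0885), WT 2 (0.132), WT 3 (0.101) or R122C 2 (0.142), nor with median-of-ratios scaling (0.0727), quantile normalization (0.0955) or no filter (0.107).

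Reg3a, the remaining member of the cluster, was listed at 0 in 5 libraries and at 0.11 FPKM in R122C 3 (exact two-sided permutation test, p = 1.0, where 0.1 is the smallest p that 3 against 3 libraries allow). Its neighbour Reg3d, which is no member, was at 0 in every WT library and at 0.06, 0.04 and 0.16 FPKM across R122C libraries 1 to 3. Reg2 had no row. Reg3d and Reg3a, which lie between Reg3b and the pair Reg1 and Reg3g, were thus at or under 0.16 FPKM in all 6 libraries. No word of 50 bases was shared between annotated transcripts of any 2 of these Reg genes, that is, 0 shared words for each pair, so reads of that length match 1 of them only.

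**Figure D2:**
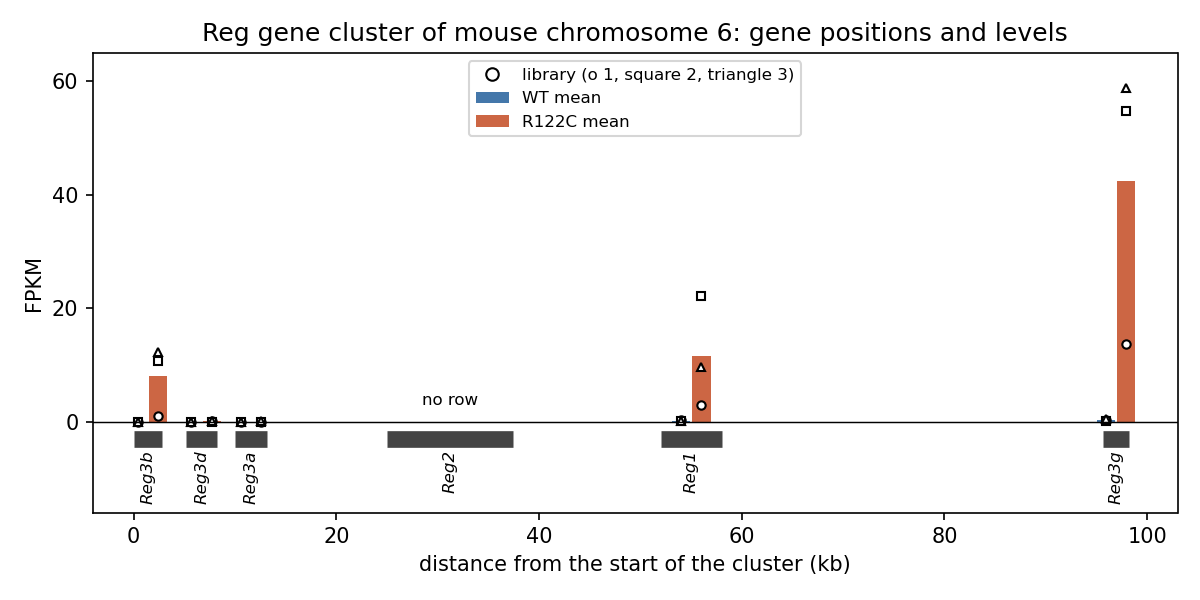
The 6 Reg genes of chromosome 6 as boxes along the distance from the start of the cluster in kb, with bars from 0 for mean FPKM in WT (blue) and R122C (orange) and open symbols for single libraries. Reg3b, Reg1 and Reg3g, at the ends and in the middle of the 98.22 kb, carry bars of 7.99, 11.6 and 42.5 FPKM in R122C, while Reg3d and Reg3a are at or near 0 and Reg2 has no row.

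The 3 Reg genes did not keep a fixed ratio across the R122C libraries. Reg3g FPKM was 13.5, 5.14 and 4.80 times that of Reg3b across R122C libraries 1 to 3, and 4.74, 2.47 and 6.14 times that of Reg1. The ratio to Reg3b was thus highest in R122C 1, where all 3 genes were lowest, and the ratio to Reg1 was lowest in R122C 2. Summed over the 9 members, FPKM was 3.45, 4.04 and 2.79 across WT libraries 1 to 3, and 22.2, 94.6 and 105 across R122C libraries 1 to 3. Reg1, Reg3b and Reg3g made up 16.5%, 7.18% and 24.0% of that sum across WT libraries 1 to 3, and 79.7%, 92.7% and 77.0% across R122C libraries 1 to 3. In WT the most abundant member was Lyz1 in WT 1 and Ltf in WT 2 and WT 3.

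Ltf, lactotransferrin (chromosome 9, 111019271 to 111042767, plus strand, up to 17 exons), varied widely in both groups. It was at 0.01, 1.76 and 0.93 FPKM across WT libraries 1 to 3, and at 0.73, 3.18 and 18.49 FPKM across R122C libraries 1 to 3. The groups overlapped, with R122C 1 below WT 2 and WT 3, and R122C 3 stood far above the rest. The log2(FPKM + 1) difference was 1.57 with a 95% interval from -0.22 to 3.36 (limma adjusted p = 0.313), and 0.62 without R122C 3.

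Lcn2, lipocalin 2 (chromosome 2, 32384633 to 32388252, minus strand), stayed low outside the same library. It was at 0.19, 0.3 and 0.55 FPKM across WT libraries 1 to 3, and at 0.19, 0.38 and 2.82 FPKM across R122C libraries 1 to 3. The groups overlapped, and the difference of 0.46 on the log2(FPKM + 1) scale did not pass (exact two-sided permutation test, p = 0.7).

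The highest values of S100a8 and S100a9, calcium-binding proteins abundant in neutrophils and in stressed squamous epithelium, and of the squamous keratins Krt5 and Krt14 were found in that library too. S100a8 was at 4.89 FPKM and S100a9 at 12.49 in R122C 3, and they were at or under 0.73 and 1.1 in the other 5 libraries. Krt5 was at 42.9 and Krt14 at 63.3 FPKM in R122C 3, and at or under 1.7 and 1.18 elsewhere. The 11 neutrophil markers searched summed to 0.33 to 2.75 FPKM in WT and 4.19 to 21.8 in R122C. Most of that sum in R122C 3 was S100a8 and S100a9, and the granule genes Mpo, Elane, Ngp and Camp and the surface marker gene Ly6g were at or under 0.06 FPKM in every library. Of that list 1 of 2 tested genes rose, Retnlg, a resistin-like gene, by 1.94 ± 0.30 (SE, limma adjusted p = 0.00754). The 2 tested, Retnlg and S100a9, had WT means of 0.34 and 0.37 FPKM and reached the filter through their R122C values. The 4 squamous markers summed to 0.34 to 6.67 FPKM in WT and to 11.1, 51.9 and 408 FPKM across R122C libraries 1 to 3. Without R122C 3, Reg3g, Reg1 and Reg3b passed, at log2 differences of 4.46, 2.99 and 2.28 (limma adjusted p = 0.000510, 0.0158 and 0.0497). Leaving out that library does not remove squamous RNA, since the squamous sums of R122C 1 and R122C 2 also lay above those of WT. The part of neutrophil or squamous RNA in the values of Ltf, Lcn2 and the 3 Reg genes was not tested.

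**Figure D3:**
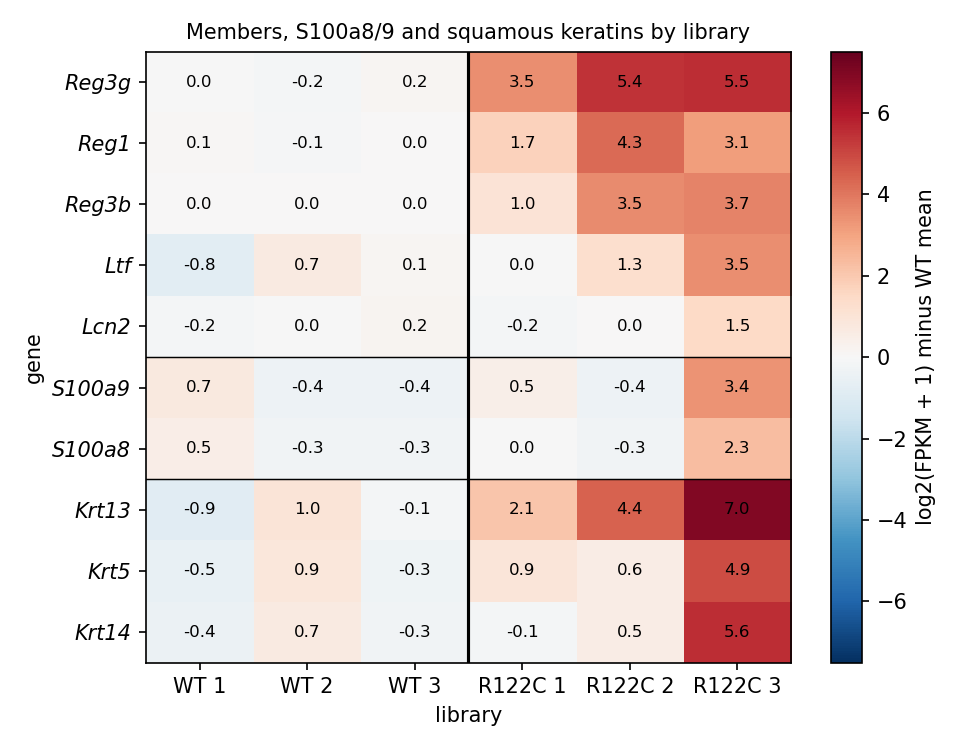
Each cell gives log2(FPKM + 1) minus the WT mean for 1 gene (rows) in 1 library (columns), with red above and blue below the WT mean. The 3 Reg genes are above the WT mean in every R122C library, between 1.01 and 5.52, whereas Ltf, Lcn2, S100a8, S100a9, Krt5 and Krt14 have their highest cell in R122C 3, as does Krt13.

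Lyz1, the Paneth cell lysozyme (chromosome 10, 117287797 to 117292868, minus strand, 4 exons), varied less between libraries than Ltf. It was at 2.4, 1.3 and 0.64 FPKM across WT libraries 1 to 3, and at 2.84, 2.46 and 2.68 FPKM across R122C libraries 1 to 3. The groups did not overlap, but WT 1 lay just under R122C 2. The log2(FPKM + 1) difference was 0.64 with a 95% interval from -0.0063 to 1.29 (limma adjusted p = 0.254). Lyz2, the myeloid lysozyme next to it, was far more abundant, at 38.89, 23.81 and 6.58 FPKM in WT and 31.8, 27.07 and 11.83 across R122C libraries 1 to 3, with overlapping groups (limma adjusted p = 0.891). Of the 50-base words in Lyz1 transcripts, 16.1% also occur in Lyz2, so some reads could be shared and the low Lyz1 level is uncertain. Within WT, both lysozymes were highest in WT 1 and lowest in WT 3.

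Saa1 and Saa3, apolipoproteins of the acute-phase response (both on chromosome 7, Saa1 at 46740497 to 46742980 and Saa3 at 46711998 to 46715700, minus strand), stayed under 1 FPKM in every library. Saa3 was at 0.28, 0.3 and 0 FPKM across WT libraries 1 to 3, and at 0.76, 0.79 and 0.06 FPKM across R122C libraries 1 to 3. R122C 1 and R122C 2 lay above all WT libraries and R122C 3 below WT 1 and WT 2, so the groups overlapped (exact two-sided permutation test, p = 0.3). Saa3 was thus lowest of the R122C group in the library where Ltf and Lcn2 were highest. Saa1 was listed at 0.09 FPKM in WT 2, at 0.13 in R122C 2 and at 0 in the other 4 libraries (exact two-sided permutation test, p = 1.0). Of its 50-base words, 31.1% also occur in Saa2, which was at or under 0.04 FPKM throughout. Depth limits these values, since 1 fragment on a transcript of 1000 bases is worth about 0.0221 to 0.0309 FPKM, and differences among the lowest values were not detectable at this depth.

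Other antimicrobial and acute-phase genes were compared with the members by a list of 23. Of these, 20 had a row and 8 reached the mean of 1 FPKM, 1 of them higher, 0 lower and 7 not past the threshold, and the median log2(FPKM + 1) difference of the 20 was 0.44 beside 0.033 over all 18708 genes. The gene that rose was Pglyrp1, a peptidoglycan recognition protein with bactericidal activity. It was at 24.91, 26.02 and 22.6 FPKM across WT libraries 1 to 3, and at 119.48, 115.12 and 179.13 FPKM across R122C libraries 1 to 3. The R122C libraries were all far above the narrow WT range, and the rise was 2.42 ± 0.21 (SE, limma adjusted p = 0.000832), past the threshold in all 15 alternatives. Dmbt1, a scavenger receptor that agglutinates bacteria, was at 9.68, 21.94 and 19.78 FPKM in WT and 39.98, 41.8 and 152.9 across R122C libraries 1 to 3, groups that did not overlap, with a difference of 1.91 ± 0.51 (limma adjusted p = 0.0696). Hamp, encoding the iron hormone hepcidin, was at 0.38, 4.65 and 0.49 FPKM in WT and 3.55, 28.96 and 9.45 across R122C libraries 1 to 3. Its groups overlapped (limma adjusted p = 0.111), and like Reg1 it was highest in R122C 2. Dmbt1, Hamp, Lyz2 and Reg3d were picked for description after their values were seen.

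**Figure D4:**
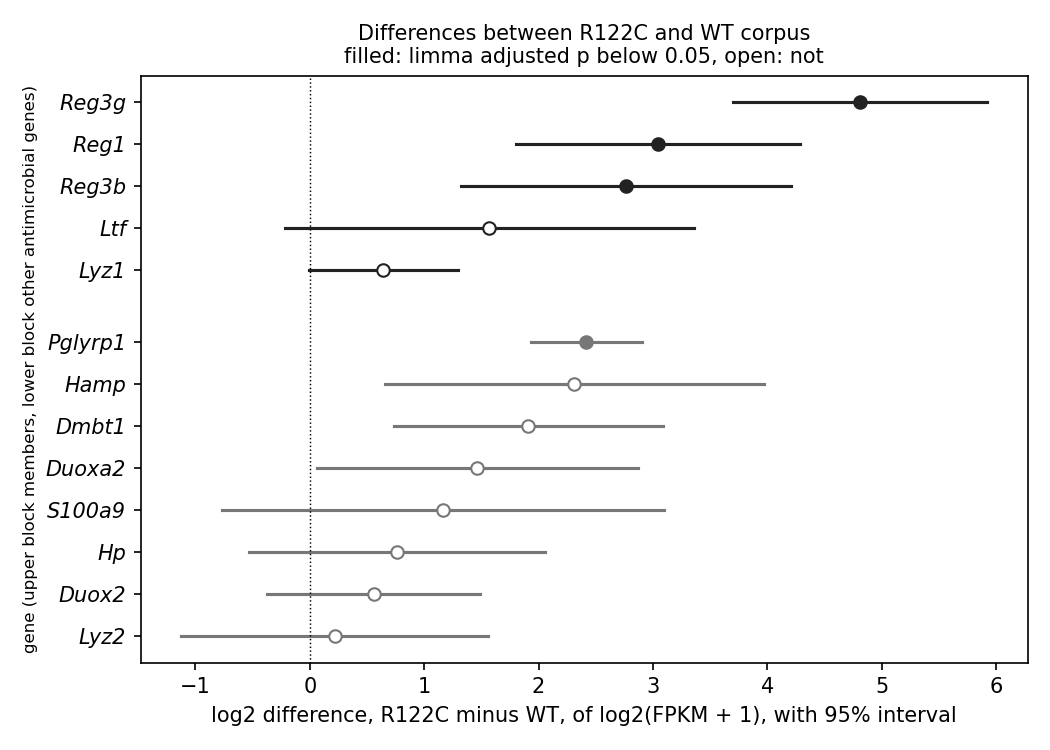
Difference between R122C and WT in log2(FPKM + 1) for the 5 tested members (upper block) and the 8 tested genes of the antimicrobial and acute-phase list (lower block), as points with 95% intervals from limma. Filled points passed the adjusted threshold: Reg3g at 4.81, Reg1 at 3.04, Reg3b at 2.76 and Pglyrp1 at 2.42, and open points did not.

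Of 17 listed cytokines known to induce these or related proteins, 12 had a row and 2 were tested, Il18 and Il33, while the other 10 with a row averaged under 1 FPKM. Il22, Il17a, Il17f, Il36a and Il36g had no row. Il6, an inducer of acute-phase genes through STAT3, was at 0, 0.02 and 0.03 FPKM across WT libraries 1 to 3, and at 0.19 FPKM in all 3 R122C libraries. The groups did not overlap at this low level (exact two-sided permutation test, p = 0.1, the smallest possible here). The same held, with the same p, for Il11 and Il1a, each at or under 0.02 FPKM in WT. In R122C they were at 0.12 to 0.37 and 0.03 to 0.98 FPKM. The other untested cytokines with a row overlapped. Il33, an alarmin of the IL-1 family, was at 17.86, 49.63 and 50.95 FPKM across WT libraries 1 to 3, and at 66.32, 168.72 and 87.93 FPKM across R122C libraries 1 to 3. Its groups did not overlap either, and the difference of 1.45 ± 0.45 on the log2(FPKM + 1) scale did not pass (SE, limma adjusted p = 0.111). Il18, an epithelial cytokine of the IL-1 family, was at 115.78, 188.01 and 140.34 FPKM across WT libraries 1 to 3, and at 75.93, 52.7 and 49.8 FPKM across R122C libraries 1 to 3, with no overlap. It fell by 1.30 ± 0.25 on the log2(FPKM + 1) scale (SE, limma adjusted p = 0.0191), a call lost without WT 2 (0.0848), WT 3 (0.0560) or R122C 2 (0.0880) or with no filter (0.0505). Among 26 receptor and signalling genes, 24 were tested, 1 of them higher, 0 lower and 23 not past the threshold, where 5.27% of all tested genes rose. The median difference of the 24 was 0.26, beside 0.10 over all tested genes. For all 26 it was 0.20, beside 0.033 over all 18708 genes. The gene of this list that rose was Osmr, the oncostatin M receptor, which signals through STAT3. With a WT mean of 0.54 FPKM, Osmr reached the filter through its R122C values. It was at 0.67, 0.56 and 0.38 FPKM across WT libraries 1 to 3, and at 2.14, 4.92 and 5.32 FPKM across R122C libraries 1 to 3, the same order of R122C libraries as Reg3g. Its rise of 1.68 ± 0.30 (SE, limma adjusted p = 0.0150) did not pass without WT 2 (0.0699), WT 3 (0.0555) or R122C 2 (0.0690) or with quantile normalization (0.0590).

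Il22ra1, the epithelial subunit of the IL-22 receptor, was at 1.13, 2.1 and 1.21 FPKM in WT and 3.21, 3.63 and 3.2 across R122C libraries 1 to 3. Its groups did not overlap, and the difference of 0.83 ± 0.22 did not pass (SE, limma adjusted p = 0.0698). Stat3 averaged 26.1 ± 1.40 FPKM for WT and 35.3 ± 4.95 for R122C (SD, n = 3 each, limma adjusted p = 0.240). Socs3, a feedback inhibitor induced by STAT3, was at 4.74, 8.66 and 7.4 FPKM in WT and 5.95, 16.63 and 24.03 across R122C libraries 1 to 3 (limma adjusted p = 0.30). These 3 genes were picked after their values were seen. Of the 24 tested receptor and signalling genes, 16 had a difference above 0. Among the others, Tlr2 was lower without overlap, by -0.71 (limma adjusted p = 0.133). The receptor subunit genes Il6st, Il11ra1 and Il6ra differed by -0.46, -0.43 and -0.35 (limma adjusted p = 0.514, 0.624 and 0.586). Of 6 proposed receptors of the member proteins, 4 were tested and 0 passed limma, with 0 also at an unadjusted p under 0.05 and a median of -0.14. Extl3, proposed as a receptor for Reg proteins, averaged 8.30 ± 1.98 FPKM for WT and 7.42 ± 2.73 for R122C (SD, n = 3 each), a difference of -0.17 with a 95% interval from -0.80 to 0.45. Lrp1, a scavenging receptor that binds lactoferrin, had the smallest p of the list, with a difference of -0.20 and a 95% interval from -0.68 to 0.27 (limma adjusted p = 0.653). The signs for Extl3 and Lrp1 changed after rescaling to a common total.

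Cell types known to make these proteins elsewhere were checked by their markers. For Paneth cells, Defa17, Defa22, Defa24, Defa30 and Ang4 had no row, Mmp7 was at or under 0.09 FPKM, and Itln1 was at 0.14, 0 and 0 FPKM in WT and 1.78, 1.81 and 1.95 across R122C libraries 1 to 3. For pancreatic acinar cells, which make Reg1, Cpa1 had no row, and Cpb1, Cela2a, Cela3b, Ctrb1 and Prss2 were no higher than 0.71 FPKM anywhere. The remaining acinar markers were Pnlip, at or under 1.45 FPKM, and Clps, at 1889 to 56620 FPKM. Of 7 goblet markers 5 were tested and 3 rose, Agr2 by 2.27 ± 0.30, Spink4 by 2.67 ± 0.40 and Clca1 by 4.38 ± 0.82 (SE, limma adjusted p = 0.00384, 0.00699 and 0.0185), while the goblet mucin Muc2 was at or under 0.1 FPKM. The other tested goblet markers, Tff3 and Fcgbp, did not pass, with differences of -0.59 and 1.35 (limma adjusted p = 0.293 and 0.307). Fcgbp was at 10.37 FPKM in R122C 3 and at or under 0.95 elsewhere. Agr2 was already at 460.91 to 702.74 FPKM in WT. Clca1 lost the call without WT 2 (0.0607) or R122C 2 (0.0509), with no filter (0.0710) or with median-of-ratios scaling (0.0525). Of 5 tested macrophage markers 0 passed limma, and the unadjusted p was under 0.05 for 1. Their list summed to 17.3 to 42.5 FPKM in WT and 33.2 to 75.1 in R122C, with Adgre1 at 0.25 to 1.75 and Csf1r at 0.87 to 3.15 FPKM over the 6 libraries. The part of these cell types in the member values was not tested.

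The defining genes of the corpus were present in all libraries. The parietal cell genes Atp4a and Atp4b were at 326 to 3617 and 529 to 4254 FPKM, and the chief cell genes Pgc and Gif at 1537 to 97962 and 167 to 1270, each lowest in R122C 3. Pgc, which encodes a pepsinogen, was at 97962, 30427 and 54202 FPKM across WT libraries 1 to 3, and at 12873, 24625 and 1537 FPKM across R122C libraries 1 to 3, groups that did not overlap, with a difference of -2.79 ± 0.96 (SE, limma adjusted p = 0.143). Slc26a7, a parietal cell anion transporter, did not overlap either, with a difference of -1.43 ± 0.48 (SE, limma adjusted p = 0.132), whereas Atp4a, Atp4b and Gif overlapped. Of 4 parietal and 3 chief cell genes tested 0 passed limma, with 1 of each list at an unadjusted p under 0.05, and the median differences were -1.24 and -0.74. All 3 neck cell genes rose, Gkn3 by 5.86 ± 0.36, Muc6 by 4.35 ± 0.56 and Tff2 by 2.16 ± 0.33 (SE, limma adjusted p = 0.000144, 0.00347 and 0.00741), of which Tff2 lost the call without WT 2 (0.0544) or with no filter (0.210). Of 6 tested enteroendocrine genes 1 rose, Gast, by 1.59 ± 0.30 (SE, limma adjusted p = 0.0183), and Chga and Chgb did not pass (0.595 and 0.611). Gast was low, at 0, 0.12 and 0.86 FPKM in WT and 2.1, 3.55 and 2.99 across R122C libraries 1 to 3. With a WT mean of 0.33 FPKM, it reached the filter through its R122C values. The Gast call was lost on leaving out WT 1 (0.0503), WT 2 (0.0902) or R122C 2 (0.0827) and on quantile normalization (0.0612). Of 3 squamous genes tested 1 rose, Krt13, by 4.48 ± 1.05 (SE, limma adjusted p = 0.0430, and between 0.0829 and 0.122 in 7 of its 15 alternatives, those without WT 1, WT 2, WT 3 or R122C 2 among them). Of the hepatocyte genes Alb was at 64.47 FPKM in WT 2 and at or under 6.2 elsewhere, while Apoa1 was at 446 to 2088 FPKM. Runx3 itself was at 0.34, 0.12 and 0.2 FPKM in WT and 0.24, 0.34 and 0.95 in R122C, too low to check the labels.

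The genes whose profile over the 6 libraries was most like that of Reg3g were H2-Q7, Lrg1 and H2-Q9. Likeness was the root mean square difference of centred log2(FPKM + 1) values, which was 0.32, 0.34 and 0.39 for them. Lrg1, a secreted leucine-rich glycoprotein of the acute-phase response, was at 2.4, 2.37 and 1.9 FPKM across WT libraries 1 to 3, and at 23.03, 84.07 and 137.04 FPKM across R122C libraries 1 to 3. As for Reg3g, R122C 1 was the lowest and R122C 3 the highest. H2-Q7 and H2-Q9, nonclassical MHC class I genes, were at 48.55, 187.16 and 130.69 FPKM and at 24, 74.83 and 43.17 FPKM across R122C libraries 1 to 3, and at or under 3.92 and 0.96 FPKM in WT. They are near-identical copies, so reads may be shared and their values are uncertain. Among the members, Reg1 was at place 35 of this ranking, at 0.96, and Reg3b at place 49, at 1.05, while Ltf was at place 347 and Lyz1 at place 1533.

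**Figure D5:**
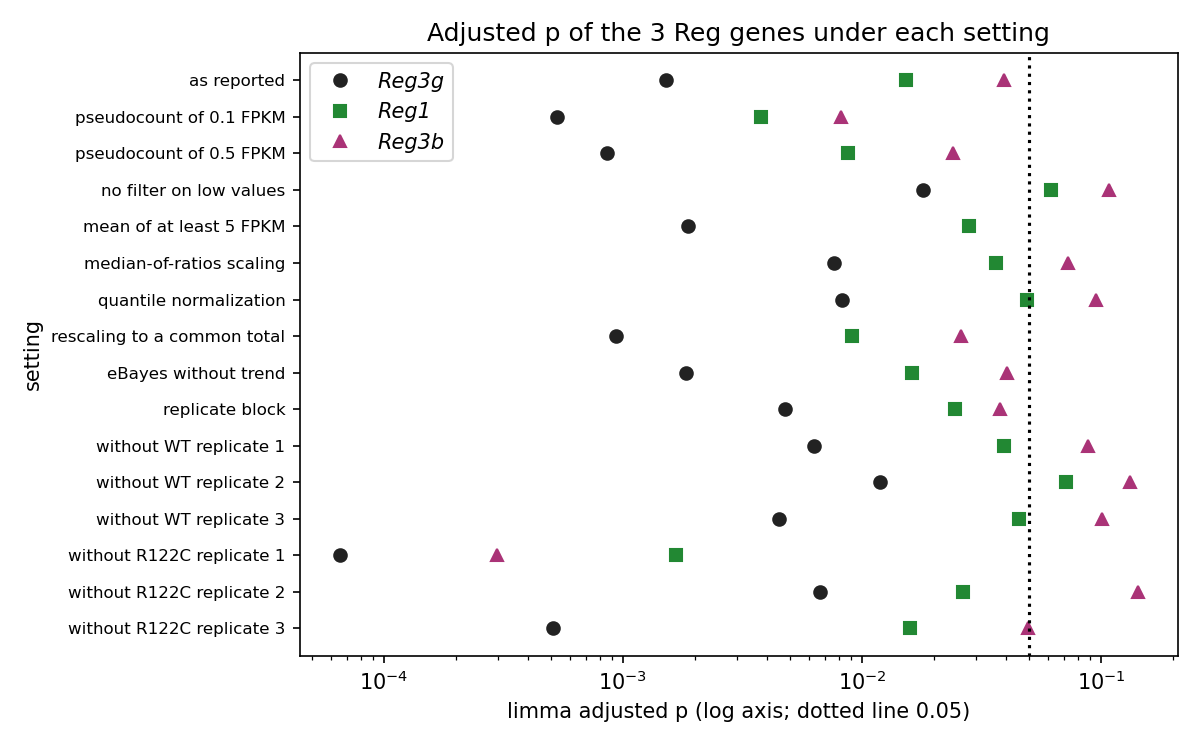
Adjusted p from limma (log axis, dotted line at 0.05) for Reg3g, Reg1 and Reg3b as reported and under each alternative setting in which the gene was tested. Reg3g lies below 0.05 in all 15 alternatives, Reg1 in 13 of 15 and Reg3b in 7 of 14.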

How the data were processed

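RNA of the stomach corpus of 6 mice, 3 WT and 3 R122C, was purified on columns with DNase treatment, and libraries were made and sequenced by a company, per the labels' protocols. The submitters' processing notes list STAR, featureCounts and mm10, with no version. The authors deposited FPKM, and the sources used here do not say how they derived it. Summed FPKM was 581276 to 716992 per library. Of the rows, 26 carry a spreadsheet date as name; they were tested but are not named.

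Raw counts were not used. The spacing of low values in genes with 1 GENCODE M21 transcript gave about 43500000, 38900000 and 32400000 fragments for WT libraries 1 to 3, and 45300000, 39900000 and 32400000 for R122C libraries 1 to 3. These are estimates, within 2.21% between length limits of 1000 and 1500 bases, and they were not turned into counts.

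The log2(FPKM + 1) values entered limma 3.58.1 in R 4.3.3 (empirical Bayes with trend, two-sided, no covariate) for genes averaging 1 FPKM or more, with p-values adjusted by Benjamini-Hochberg over all of them. A pseudocount of 1 understates changes of low genes. Retnlg, S100a9, Osmr, Gast, Fcgbp, Krt5 and Krt14 had WT means under 1 FPKM and, like 4 members, entered the fit through their R122C values. Members under the filter got an exact permutation test. The fit was tested on simulated data. Labels name 1 mouse per library, so replicates are animals.

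The members and gene lists were chosen with earlier results of these data known. Named genes are all members, Runx3, from each list up to 4 called genes (with none, that of smallest p), the first 2 of each cell type list, and the 3 genes most like Reg3g. Other genes, Il6, Il33, Slc26a7 and Extl3 among them, were chosen after their values were seen. Promoters are from RefSeq (GRCm38.p6). Figures were drawn with matplotlib 3.10.9. Alternatives were pseudocounts of 0.1 and 0.5, no filter, a minimum mean of 5 FPKM, 3 scalings, no trend, a replicate block and leaving out each library.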

Additional observations from a re-analysis of the deposited data

How the results depend on the processing

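Reg3g kept its call in all 15 alternatives, Reg1 in 13 of 15 and Reg3b in 7 of 14, and Ltf and Lyz1 passed in 0 of 14, each with the same sign throughout. Of the members, 1 was called higher with no filter and 1 to 3 when each library was left out in turn, with 0 called lower. Reg3b was not tested at a mean of at least 5 FPKM.

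Genes called higher and lower over the table were 392 and 57 at a mean of at least 5 FPKM, where fewer genes are tested. There were 192 lower with median-of-ratios scaling, 248 lower with quantile normalization and 1260 higher after rescaling to a common total. Leaving out each library gave 246 to 581 higher and 14 to 195 lower. In the context lists, where 2 genes rose and 1 fell, the count higher was 4 with no filter (0 lower), 1 at a mean of at least 5 FPKM, 1 with quantile normalization and 9 after rescaling to a common total, and 1 to 4 higher and 0 to 1 lower when each library was left out. Beyond construction, the cause was not tested.

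With the replicate block 1119 genes were higher and 259 lower, and 10 context genes were higher. All 3 Reg genes passed (limma adjusted p = 0.00478, 0.0244 and 0.0378 for Reg3g, Reg1 and Reg3b). Deviations of same-numbered libraries correlated at 0.47, 0.02 and 0.37 across genes for numbers 1, 2 and 3. Between libraries of other numbers the correlations ran from -0.42 to 0.11, and WT 2 correlated best with R122C 3 (0.11). Numbers 1 and 3 thus correlated best with their own number. Whether same-numbered libraries share more than a number was not tested.

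Small differences changed sign in non-members that did not pass: Extl3 (0.028), Lrp1 (0.0031) and Scarb1 (0.12) after rescaling, Lyz2 without WT 3 or R122C 1 (-0.47 to 0.73 when each library was left out), Extl3 without R122C 3 (-0.41 to 0.054) and Scarb1 without WT 3 (-0.26 to 0.058). With no filter, Reg3a, Lcn2, Saa1 and Saa3 did not pass (limma adjusted p = 0.621, 0.641, 0.918 and 0.509). Depth limits values under about 0.1 FPKM, which rest on few fragments.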
